A study of Homo sapiens with 12 samples.

Results

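The comparison described here set HEK293 cells lacking AMPK against wild-type (WT) HEK293 cells after stimulation with epidermal growth factor (EGF). Its members were the 4 libraries labelled as DMSO with EGF, 2 of the AMPK knockout (AMPK KO) and 2 of WT, chosen by label from the 12 libraries of the series. HEK293 is an established line from human embryonic kidney. In the AMPK KO line the genes of both catalytic AMPK subunits, PRKAA1 and PRKAA2, had been disrupted with CRISPR. Whether that line came from 1 clone is not given in the sources used here. Both lines were starved of serum for 24 h, received the solvent DMSO and then EGF, which acted for the last 30 min of 50 min. The labels and the design text give the EGF concentration as 15 with different units (µM and nM), which could not be resolved. The remaining 8 libraries were the same lines in DMSO without EGF, and with 25 µM cordycepin, an adenosine analogue, before EGF. Total RNA depleted of ribosomal RNA was sequenced with a stranded kit, and each group held 2 libraries, numbered 2 and 3.

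AMPK is a kinase of 1 catalytic (α) and 2 regulatory (β, γ) subunits that is switched on when cellular energy runs low and that slows anabolic pathways such as lipid synthesis and mTOR signalling. EGF binds the receptor EGFR and signals through RAS and the kinases MEK and ERK, and also through PI3K and AKT. Within minutes this chain turns on immediate early genes such as FOS, JUN and EGR1, which encode transcription factors and need no new protein synthesis to be transcribed. Serum-starved cells are used for such experiments because immediate early transcripts are low before the stimulus. The comparison asked which genes differed between the lines once both had been stimulated.

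The 4 EGF libraries held 14152341 to 25058514 reads on the listed genes, and replicates correlated across genes with r = 0.975 in WT and 0.977 in AMPK KO. The mitochondrially encoded share of RPKM (reads normalised to gene length and library depth) overlapped between the lines, at 8.42% to 12.3% in WT and 8.95% to 11.4% in AMPK KO. The share of reads on processed pseudogenes was 3.26% and 3.54% in WT and 3.26% and 3.44% in AMPK KO. One library of another group, WT in DMSO replicate 3, held 4010849 reads. It entered the shared estimate of the spread and is followed as an alternative. Of 10 markers of kidney and embryonic kidney 7 were listed and 6 tested. Their summed level was 21.7 to 24.1 RPKM in WT and 20.6 to 22.6 RPKM in AMPK KO. Of 12 myeloid markers 1 was listed, PTPRC, at 0.00788 to 0.061 RPKM, and MPO, ELANE and SPI1 were not listed. The luminal epithelial list (6 of 9 tested) and the neuronal and adrenal list (3 of 10 tested) held no gene that passed the test.

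The targeted genes were examined first. PRKAA1 (ENSG00000132356, GRCh38 chromosome 5, 40759389 to 40798374, minus strand), which encodes the α1 subunit, had 17.4 and 19 RPKM in WT and 8.51 and 7.49 RPKM in AMPK KO. The groups did not overlap, and the transcript was lower by 1.12 on the log2 scale (SE 0.167, limma adjusted p = 0.0236) and still present in the AMPK KO. PRKAA1 passed under each of 14 alternatives that kept the 4 EGF libraries (limma adjusted p at most 0.0404) and under none that left 1 of them out (0.152 to 0.248). All log2 differences here are AMPK KO minus WT on the log2(RPKM + 0.5) scale, which understates changes of low genes. PRKAA2, which encodes α2, had 9.97 and 11.4 RPKM in WT and 6.96 and 6.71 RPKM in AMPK KO. Its groups were apart as well, as were those of 32.8% of all genes tested in the lower direction. The difference of -0.59 (SE 0.202) did not pass adjustment over all genes (limma adjusted p = 0.134). A disrupted reading frame need not remove a transcript, so neither value measures the protein.

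The 4 tested regulatory subunits did not pass. The β subunit genes PRKAB1 and PRKAB2 differed by 0.40 and -0.27, and the γ subunit genes PRKAG1 and PRKAG2 by 0.24 and -0.30. PRKAG3 was not listed. Among 8 upstream kinases and partners 0 passed, and STK11, which encodes the kinase LKB1, had 10.1 and 10.4 RPKM in WT and 10.3 and 10.8 RPKM in AMPK KO. Of 24 genes for AMPK substrates 1 passed (4.17%, against 1.74% of all genes tested), the lower SREBF1, described with the lipid genes.

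**Figure D1:**
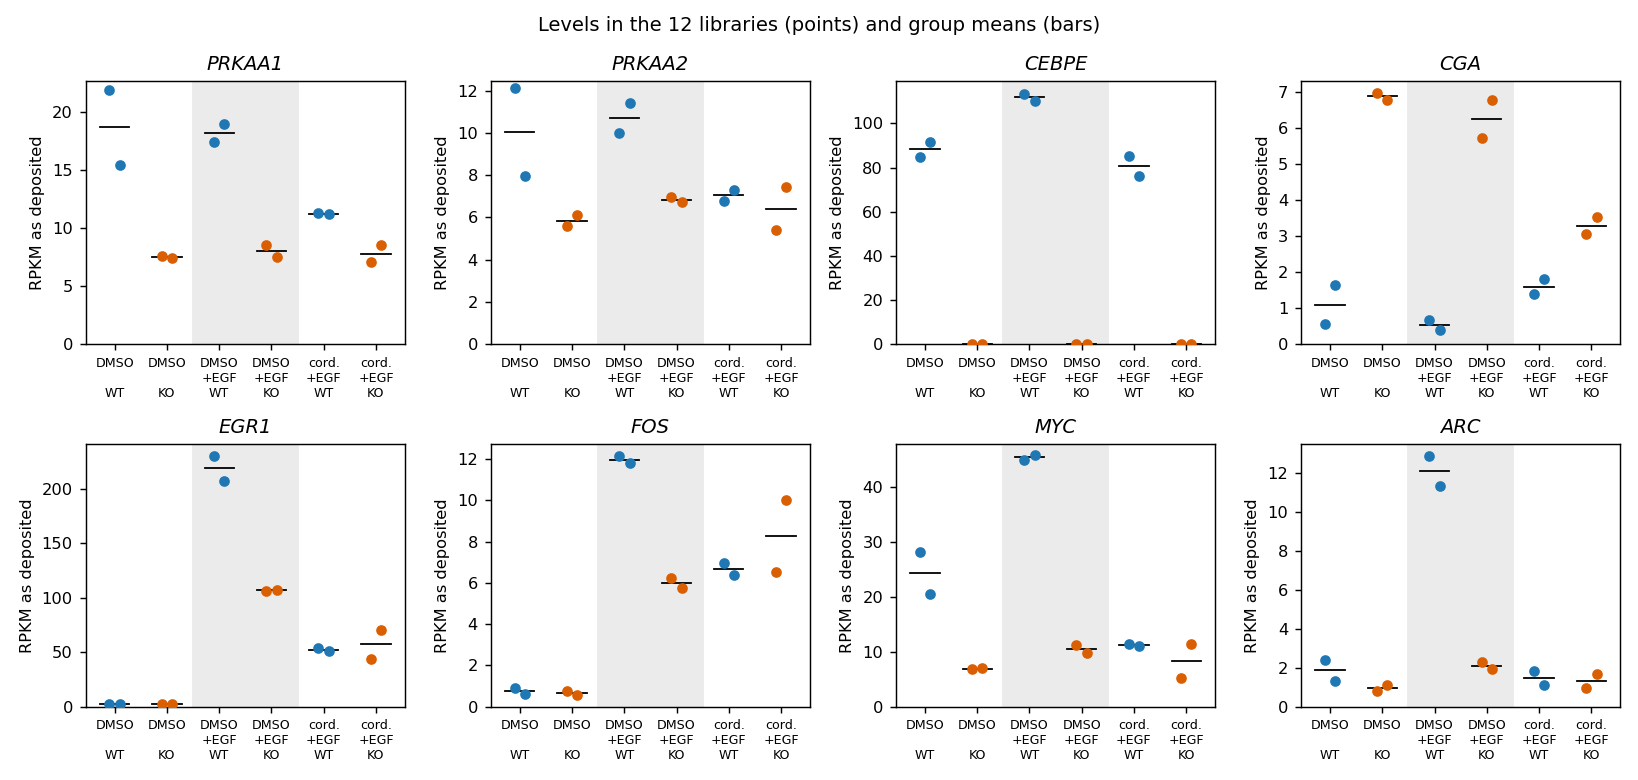
Level of 8 genes in each of the 12 libraries (points, RPKM as deposited, linear axis from 0) with the group means (horizontal lines), WT in blue and AMPK KO in orange, and the 4 EGF libraries on grey. CEBPE is at 0 RPKM in both AMPK KO libraries under EGF, while EGR1 is at 106 to 107 RPKM there and at 207 to 229.7 RPKM in WT.

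Across all genes, 383 of 22067 tested differed at an adjusted p under 0.05 (limma, Benjamini-Hochberg over all genes tested), which is 1.74%. There were 205 higher in AMPK KO (0.929%) and 178 lower (0.807%). Without adjustment 4964 genes (22.5%) had p under 0.05, 2456 of them higher and 2508 lower. The lower genes differed more. Their median size was 1.09 on the log2 scale, and 105 of 178 differed by at least 1, against a median of 0.83 and 47 of 205 for the higher genes. Protein-coding genes made up 179 of the higher and 153 of the lower set. The protein-coding share of all genes tested is not given here for comparison. In none of the 383 genes did the libraries of the lines overlap, which was also so for 30% of all genes tested in the higher and 32.8% in the lower direction.

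The 2 sets differed in base composition. The median GC content of exons was 42.9% in the higher and 60.2% in the lower set. The tenth of genes richest in GC held 85 of the 178 lower and 3 of the 205 higher calls, and its median difference was -0.13 under EGF, 0.31 in DMSO and -0.14 with cordycepin and EGF. With the median of each GC class removed in every library, an alternative chosen after seeing the data, 94 genes were called higher and 54 lower (0.671% of those tested), and 144 of these 148 were among the 383. The number also depended on which libraries set the spread. Without the shallow WT DMSO library it was 1136 higher and 1228 lower, including all 383, and voom on the reads recovered from the RPKM steps gave 1102 and 1351. With 1 of the 4 EGF libraries left out, which leaves a lone sample assumed to vary like the other groups, only 6 to 10 genes were called. Of the 46 genes chosen by the naming rule that passed, 5 did so whichever EGF library was left out: CEBPE, MAP7D2, CIROP, TENM1 and RADX.

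The largest differences were genes read in WT and nearly silent in AMPK KO. CEBPE (ENSG00000092067, chromosome 14, 23117036 to 23120256, minus strand), a transcription factor known for granulocyte maturation, had 113.6 and 110.0 RPKM in WT. It had 0 RPKM in both AMPK KO libraries, where 0 reads were recovered against 8272 in WT. That count of 0, set at the floor of 3 reads for the group, makes CEBPE at least 1823-fold lower (fitted log2 difference -7.78, SE 0.118, limma adjusted p = 5.26e-09). In the other 2 conditions WT held 76.2 to 91.8 RPKM of CEBPE and AMPK KO at most 0.0387 RPKM, so the lines were as far apart there.

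CIROP, a neighbour that encodes a metallopeptidase, ends 12046 bases from CEBPE on the same strand of chromosome 14, with 0 listed genes between. It had 7.88 and 6.06 RPKM in WT and 0.0448 and 0.0224 RPKM in AMPK KO (log2 difference -3.77, SE 0.248, limma adjusted p = 0.000575). The AMPK KO values rest on 2 and 1 reads, and the ratio of 213 in favour of WT has an exact 95% counting interval of 72.7 to 1035. Intervals of this kind cover counting error only. The other 5 genes of the C/EBP family were expressed in both lines. CEBPA, a factor of fat and myeloid cells, had 4.56 and 5.17 RPKM in WT and 2.00 and 1.53 RPKM in AMPK KO (log2 difference -1.23, limma adjusted p = 0.0474), a call lost with the GC correction (adjusted p = 0.092, range over 14 alternatives 0.00574 to 0.0973). CEBPB, CEBPD, CEBPG and DDIT3 did not pass.

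MAP7D2 on the X chromosome, which encodes a microtubule-associated protein, had 7.23 and 7.84 RPKM in WT and 0.0166 and 0.0498 RPKM in AMPK KO, from 1 and 3 reads. The ratio was 225 (exact 95% counting interval 87.8 to 828). Its 3 relatives MAP7, MAP7D1 and MAP7D3 were read in both lines and did not pass, at 8.18 to 28.4 RPKM over the 4 libraries. TENM1, also on the X chromosome and encoding a teneurin, a cell-surface protein of the nervous system, had 5.28 and 4.42 RPKM in WT and 0.0907 and 0.139 RPKM in AMPK KO. TENM1 rested on 43 reads in AMPK KO against 2799 in WT, and the difference was -3.10 (SE 0.203, limma adjusted p = 0.000575).

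TUSC1, a gene without introns on chromosome 9, had 4.01 and 4.90 RPKM in WT and 0 reads in both AMPK KO libraries, which makes it at least 59.3-fold lower. IGFBPL1, on the same chromosome, had 2.03 and 2.05 RPKM in WT and 0.0406 and 0 RPKM in AMPK KO, from 2 reads in all. RIBC2, whose protein lies in the microtubules of cilia, had 2.12 and 2.20 RPKM in WT and 0 and 0.0397 RPKM in AMPK KO. ERVMER34-1, an envelope gene left by an endogenous retrovirus, had 1.92 and 2.01 RPKM in WT and 0.0539 and 0.036 RPKM in AMPK KO. In each of these 4 genes both WT libraries stood far above both AMPK KO libraries. No overlap between the lines was part of the rule that chose them. H2BC10, 1 of many near-identical histone H2B genes, had 6.05 and 4.16 RPKM in WT and 0.45 and 0 RPKM in AMPK KO, and its reads may be shared with copies. Of 55 replication-dependent histone genes, it was the 1 that passed (1.82%, close to the 1.74% of all genes tested).

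**Figure D2:**
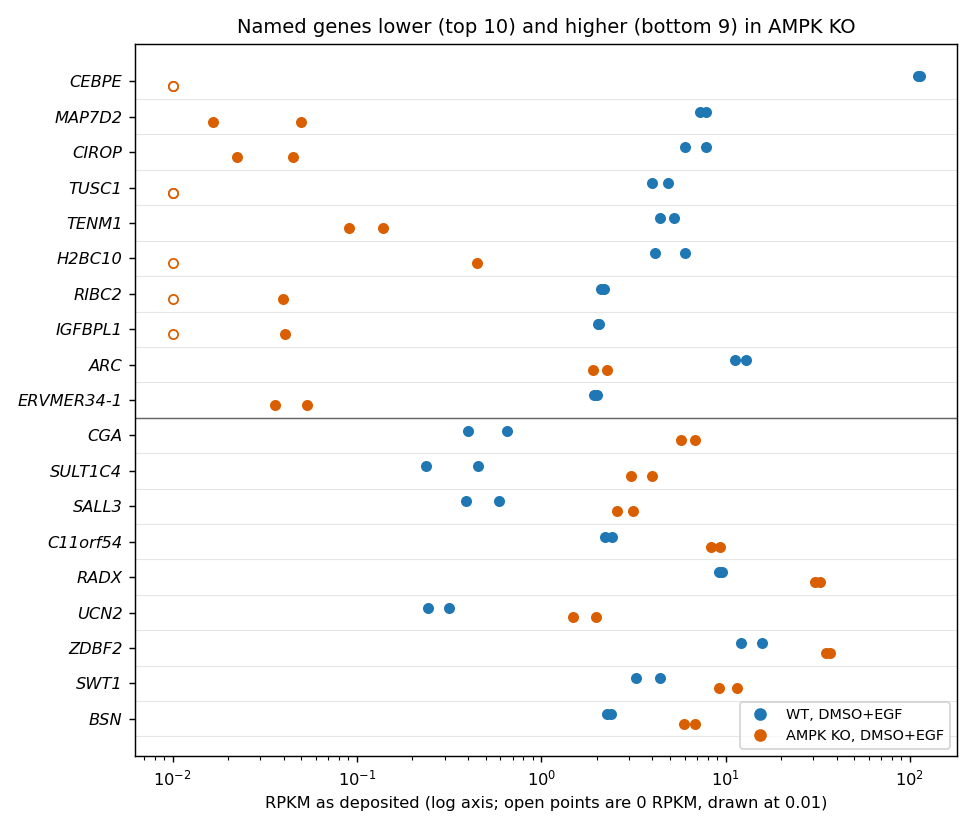
RPKM as deposited on a log axis for the 10 protein-coding genes with the largest fall and 9 of those with the largest rise among those called with a mean of at least 1 RPKM over the 4 libraries shown, with both WT (blue) and both AMPK KO (orange) libraries under EGF. Open points are 0 RPKM, drawn at 0.01. No overlap between the lines was part of the rule that chose these genes, so the lines are apart in every row.

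Of the protein-coding genes with a mean of at least 1 RPKM over the 4 libraries, those with the largest rises were read in both lines. CGA, the shared α chain of the glycoprotein hormones, had 0.656 and 0.398 RPKM in WT and 5.72 and 6.79 RPKM in AMPK KO. The ratio of RPKM means was 11.9, and the fitted difference was 2.73 (SE 0.299, limma adjusted p = 0.0132). Of the other glycoprotein hormone genes 2 were tested and 0 passed. SULT1C4, a sulfotransferase of drug and steroid metabolism, had 0.453 and 0.238 RPKM in WT and 3.08 and 4.01 RPKM in AMPK KO. Of 4 tested sulfotransferases it was the 1 that passed (25%, against 1.74% of all genes tested), and all 4 differences were above 0. SALL3, a zinc finger factor of development, had 0.587 and 0.391 RPKM in WT and 2.58 and 3.15 RPKM in AMPK KO.

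RADX, which acts at replication forks, was at higher levels. It had 9.19 and 9.58 RPKM in WT and 32.5 and 30.5 RPKM in AMPK KO (log2 difference 1.71, SE 0.128, limma adjusted p = 0.00146). ZDBF2, an imprinted gene of chromosome 2 read from the paternal copy, had 12.2 and 15.7 RPKM in WT and 36.6 and 35.2 RPKM in AMPK KO (difference 1.36, limma adjusted p = 0.0136). It was the 1 of 11 tested imprinted genes that passed (9.09%, against 1.74% of all genes tested). BSN, a scaffold of the presynaptic zone, had 2.40 and 2.29 RPKM in WT and 5.95 and 6.86 RPKM in AMPK KO. UCN2, a peptide of the corticotropin-releasing family, had 0.316 and 0.243 RPKM in WT and 1.5 and 1.98 RPKM in AMPK KO. Its values rest on 18 reads in WT and 72 in AMPK KO, and it overlaps PFKFB4 on the same strand. The adjusted p of BSN and UCN2 was 0.0496 and 0.0416 (limma), and over their alternatives it ran up to 0.0585 and 0.0514.

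For 2 further rises the call was lost with the GC correction. C11orf54 had 2.21 and 2.43 RPKM in WT and 8.35 and 9.29 RPKM in AMPK KO. SWT1, whose protein surveys RNA in the nucleus, had 3.27 and 4.41 RPKM in WT and 9.19 and 11.6 RPKM in AMPK KO. Their adjusted p was 0.0427 and 0.0416 (limma), and with the GC correction it was 0.0655 for both, while over 14 alternatives it reached at most 0.066 and 0.0655.

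Among long noncoding RNAs 22 passed, 13 of them higher. The number of long noncoding RNAs tested is not given here, so these counts have no background beside them. ENSG00000287266 had 0.335 and 0 RPKM in WT and 2.46 and 3.94 RPKM in AMPK KO, from 5 reads in WT, and the ratio was 15.7 (exact 95% counting interval 6.33 to 50.5). ENSG00000274828 on chromosome 18 had 4.10 and 4.71 RPKM in WT and 21.9 and 24.1 RPKM in AMPK KO. ENSG00000271830 had 0.780 and 0.859 against 3.06 and 5.52 RPKM, from 12 reads in WT and 42 in AMPK KO. The 3 largest falls were ENSG00000247134 (6.52 and 5.80 against 1.01 and 1.05 RPKM), ENSG00000262003 (2.40 and 2.00 against 0.353 and 0.265 RPKM) and ENSG00000276754 (4.43 and 2.70 against 0.944 and 1.13 RPKM). The AMPK KO values of ENSG00000262003 and ENSG00000276754 rest on 7 and 11 reads. ENSG00000276754, ENSG00000274828 and ENSG00000271830 did not pass with the GC correction, where their adjusted p was 0.0569, 0.0606 and 0.0599. All 6 overlap other listed genes, and whether the authors' counting used the strand is not given in the sources used here.

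The immediate early genes were examined as a list, and not every member was higher with EGF in WT. The WT mean of EGR1 was 2.51 RPKM in DMSO and 219 RPKM with EGF, and that of KLF10 was 5.72 and 4.25 RPKM. Of 37 in the list 34 were tested, 3 were lower in AMPK KO (8.82%) and 0 were higher. Of all genes tested 0.807% were called lower and 1.74% in either direction. The differences of 23 were below 0 and of 11 above 0, with a median of -0.18, against a median of -0.00471 over all genes tested. EGR1 (chromosome 5, 138465479 to 138469303, plus strand), a zinc finger factor, had 229.7 and 207 RPKM in WT and 106 and 107 RPKM in AMPK KO. The difference of -1.01 (SE 0.186) passed in limma (adjusted p = 0.0416). It did not pass with the replicate block, without the variance trend or with the GC correction (0.0515, 0.0575 and 0.0581), nor with 1 EGF library left out (0.17 to 0.263), and over 14 alternatives the adjusted p was 0.00239 to 0.0661.

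MYC, the growth regulator, had 44.9 and 45.8 RPKM in WT and 11.2 and 9.83 RPKM in AMPK KO (difference -2.04, SE 0.284, limma adjusted p = 0.0199). ARC, an immediate early gene best known at synapses, had 12.9 and 11.3 RPKM in WT and 2.27 and 1.91 RPKM in AMPK KO (difference -2.27, SE 0.293, limma adjusted p = 0.0177). Both passed under each of 14 alternatives that kept all 4 EGF libraries, and neither passed with 1 of those libraries left out. In EGR1, MYC and ARC each WT library lay above each AMPK KO library. That was also so for all 178 called lower genes and for 32.8% of all genes tested.

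Several other immediate early genes lay lower in AMPK KO without passing. FOS had 12.2 and 11.8 RPKM in WT and 6.22 and 5.75 RPKM in AMPK KO (difference -0.93, SE 0.209, limma adjusted p = 0.058). EGR3 had 7.29 and 8.77 RPKM against 4.38 and 4.82 RPKM (limma adjusted p = 0.0648). JUN had 69.6 and 67.3 RPKM against 45.7 and 44.9 RPKM (limma adjusted p = 0.0674). ID1, an inhibitor of helix-loop-helix factors, had 1.70 and 1.63 RPKM against 0.469 and 0.470 RPKM, the latter from 8 reads each (limma adjusted p = 0.0608). In all 4 the lines did not overlap, which was also so for 32.8% of all genes tested in the lower direction. Each of the 4 was called in 4 alternatives, those that left the WT DMSO group or its shallow library out of the fit, fitted only the compared groups or used voom.

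Other members did not follow. BTG2, IER5, HBEGF, JUNB, SRF and ZFP36 differed by -0.06 to 0.10. KLF10 and NR4A2, encoding a zinc finger factor and an orphan nuclear receptor, had the highest differences, 0.70 and 0.67, and did not pass (limma adjusted p = 0.101 and 0.169). KLF10 had 4.16 and 4.34 RPKM in WT and 7.12 and 7.18 RPKM in AMPK KO. In DMSO without EGF, WT had 4.41 and 7.02 RPKM of KLF10, so EGF did not raise it there.

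**Figure D3:**
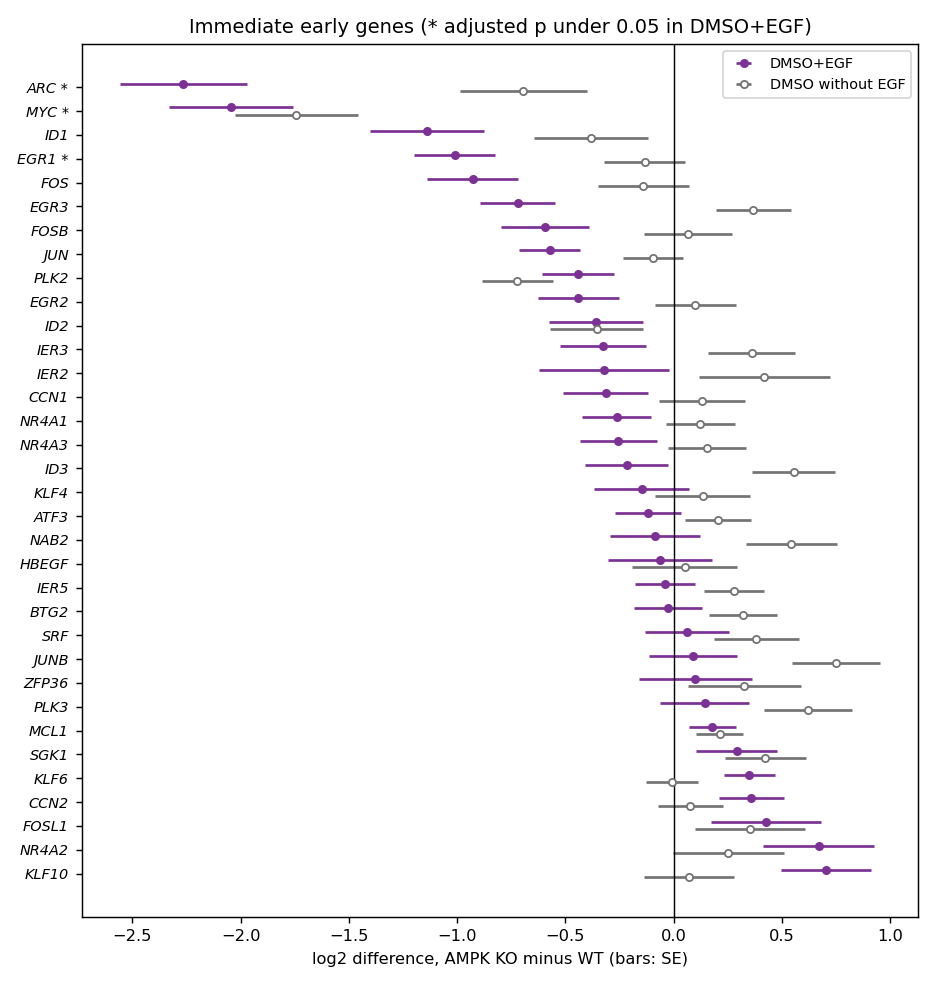
Difference between the lines (log2, AMPK KO minus WT, points with SE) for the 34 tested immediate early genes, under DMSO with EGF (filled) and in DMSO without EGF (open). The EGF values run from -2.27 for ARC to 0.70 for KLF10, and MYC lies at -2.04 with EGF and at -1.74 without.

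Whether these differences were particular to the stimulated state was tested as the line difference under EGF minus that in DMSO. In DMSO, EGR1 was at 2.64 and 2.38 RPKM in WT and 2.38 and 2.17 RPKM in AMPK KO. The difference of the line differences was -0.88 (SE 0.263) for EGR1, -1.57 (SE 0.415) for ARC and -0.79 (SE 0.296) for FOS. None passed adjustment over all genes in limma (adjusted p = 0.569, 0.569 and 0.57). MYC was already lower in AMPK KO before EGF, with 28.1 and 20.5 RPKM in WT and 6.89 and 6.99 RPKM in AMPK KO. Its line difference there was -1.74 (limma adjusted p = 0.0434), and the change of that difference with EGF was -0.30 (SE 0.402, limma adjusted p = 0.856).

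The promoters of EGR1, which passed, and of FOS, which did not, are shown because growth factors act on both genes through known elements. In serum and growth factor responses SRF binds the CArG box, and CREB and AP-1 family factors bind sites that hold TGACGT. Below are the 250 bases upstream of the RefSeq start (GRCh38.p14, plus strand), at chr5:138465229-138465478 for EGR1 and chr14:75278578-75278827 for FOS, read 5′ to 3′, with CArG boxes and TGACGT (on either strand, so also its reverse complement) in capitals.
EGR1: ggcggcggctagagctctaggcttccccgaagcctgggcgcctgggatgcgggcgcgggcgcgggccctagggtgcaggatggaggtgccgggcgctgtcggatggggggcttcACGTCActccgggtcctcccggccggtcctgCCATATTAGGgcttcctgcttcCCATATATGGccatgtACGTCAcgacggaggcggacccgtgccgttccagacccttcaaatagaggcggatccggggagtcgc
FOS: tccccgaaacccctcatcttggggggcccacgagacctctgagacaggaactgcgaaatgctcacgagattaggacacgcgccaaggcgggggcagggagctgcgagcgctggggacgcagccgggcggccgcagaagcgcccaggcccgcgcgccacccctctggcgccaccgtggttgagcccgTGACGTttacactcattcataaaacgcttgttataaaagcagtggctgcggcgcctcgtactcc

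The EGR1 window held 2 CArG boxes and 2 TGACGT sites, and the FOS window held 1 TGACGT site. Of the 34 tested immediate early genes 25 had a promoter in the RefSeq table, and 3 of them held a CArG box (EGR1, EGR2 and SRF), or 12%, against 1.44% of 27305 genes with a promoter. TGACGT was in 6 of the 25, or 24%, against 8.62% of those 27305 genes. Among the 11515 tested genes with a promoter the CArG box was in 1.39% and TGACGT in 12.5%. The called higher genes had TGACGT in 19.1% and the called lower genes in 7.2%. A match describes these letters only, and boxes farther upstream were not searched.

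The chain from receptor to ERK was examined next. Of 13 EGF receptor and ligand genes 8 were tested and 0 passed, with a median difference of -0.38. EGFR, the receptor itself, had 2.72 and 2.52 RPKM in WT and 1.01 and 0.75 RPKM in AMPK KO (difference -1.16, SE 0.393, limma adjusted p = 0.131). ERBB2 had 7.80 and 7.31 RPKM against 4.52 and 4.50 RPKM (limma adjusted p = 0.0608), and ERBB3 had 1.37 and 1.32 RPKM against 0.438 and 0.439 RPKM (limma adjusted p = 0.0569). The lines did not overlap in these 3 receptor genes, which was also so for 32.8% of all genes tested in the lower direction. ERBB4 lay apart in the other direction, as did 30% of all genes tested. It had 4.82 and 4.63 RPKM in WT and 5.43 and 5.71 RPKM in AMPK KO.

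Of 27 genes of the RAS-ERK cascade 0 passed, with a median difference of 0.09. NRAS, which encodes a RAS protein, had 34.8 and 43.8 RPKM in WT and 58.9 and 55.5 RPKM in AMPK KO (limma adjusted p = 0.061). Of 18 tested feedback inhibitors of ERK 0 passed, and their median was -0.01. DUSP1, an early-induced phosphatase, had 20.7 and 20.3 RPKM in WT and 14.7 and 14.6 RPKM in AMPK KO (limma adjusted p = 0.0938).

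In PI3K, AKT and mTOR signalling, 26 genes were tested and 1 passed, higher in AMPK KO (3.85%, against 1.74% of all genes tested). The median difference was 0.01, with 13 differences above 0 and 13 below. AKT1, an AKT kinase, had 12.4 and 13.8 RPKM in WT and 9.38 and 8.14 RPKM in AMPK KO and did not pass. EIF4EBP1, the translation repressor controlled by mTOR, had 84.1 and 77.1 RPKM against 48.7 and 43.4 RPKM (limma adjusted p = 0.11).

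For pathways under AMPK control the calls are set beside the 1.74% of all genes tested that passed. Lists this short can hold 0 calls at that share. Of 27 tested genes of cholesterol and fatty acid synthesis 1 passed (3.7%), SREBF1, which encodes a master factor of lipid synthesis and is also a substrate of AMPK. SREBF1 had 9.93 and 8.52 RPKM in WT and 5.28 and 5.17 RPKM in AMPK KO (difference -0.74, SE 0.126, limma adjusted p = 0.034), with an adjusted p of 0.0633 after the GC correction and 0.00363 to 0.0633 over 14 alternatives. The median of that list was 0.05. Of 39 tested autophagy and lysosome genes 0 passed, 28 differences were above 0 and the median was 0.13. MAP1LC3B, an autophagosome coat protein, had 16.3 and 22.1 RPKM in WT and 33.4 and 33.4 RPKM in AMPK KO (limma adjusted p = 0.084). Glycolysis (22 tested), mitochondrially encoded proteins (13) and mitochondrial biogenesis (11) held 0 calls, with medians of 0.04, 0.07 and 0.11.

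Of 18 tested p53 targets 2 were higher (11.1%, against 0.929% of all genes tested), the median was 0.34 and 14 differences were above 0. MDM2, the ligase that degrades p53, had 42.5 and 44.7 RPKM in WT and 71.1 and 72.7 RPKM in AMPK KO (difference 0.73, SE 0.112, limma adjusted p = 0.025), and with the GC correction its adjusted p was 0.0631 (range over 14 alternatives 0.00305 to 0.0631). XPC, a DNA damage sensor of chromosome 3, had 7.11 and 7.09 RPKM against 13.2 and 12.5 RPKM (difference 0.83, limma adjusted p = 0.0146). CDKN1A, the cell cycle inhibitor p21, had 15.3 and 17.8 RPKM against 20.8 and 22.0 RPKM and did not pass.

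Of 18 genes of the integrated stress response 1 passed (5.56%, against 1.74% of all genes tested), SLC7A11, the cystine transporter, which was higher. It had 6.50 and 8.57 RPKM in WT and 13.7 and 13.3 RPKM in AMPK KO (limma adjusted p = 0.0484, and 0.0845 with the GC correction). SIX2, a kidney progenitor factor, was lower among the kidney markers, at 1.88 and 1.27 RPKM against 0.131 and 0.328 RPKM (limma adjusted p = 0.0496, and 0.077 with the GC correction). Its AMPK KO values rest on 14 reads, and it was the 1 of 6 tested kidney markers that passed (16.7%). Among the clustered protocadherins 5 of 26 were tested, all 5 differences were below 0, and 1 passed (20%). It was PCDHGB5, at 3.68 and 3.35 RPKM against 1.36 and 1.26 RPKM (limma adjusted p = 0.0427, and 0.0601 with the GC correction). The protocadherin genes of that cluster share exons, so their reads cannot be assigned with certainty. Of 35 tested HOX genes 0 passed, and 26 differences were below 0. The S phase, G2/M, ribosomal protein, Hippo, interferon, and cadherin and integrin lists held 0 calls. Their medians were 0.14, 0.02, -0.07, -0.28, 0.11 and -0.49, in that order. In the cadherin and integrin list 15 of 21 tested differences were below 0, and in the Hippo list 11 of 16.

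The ZNF family had 447 tested genes, of which 6 were higher and 3 lower (2.01%, close to the 1.74% of all genes tested), and 285 differences were above 0 with a median of 0.11. ZNF717 fell to 0.0945 and 0.123 RPKM in AMPK KO from 1.51 and 1.08 RPKM in WT, and ZNF738 rose from 0.234 and 0.196 RPKM to 1.56 and 1.32 RPKM. ZNF142, ZNF621, ZNF84, ZNF416 and ZNF83 were higher, with differences of 0.62 to 0.92, and ZNF16 and ZNF837 were lower. The calls of ZNF16, ZNF84, ZNF837, ZNF416 and ZNF83 were lost with the GC correction.

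The called genes were not spread evenly over the genome. Medians were taken over the 18364 genes with a mean of at least 1 RPKM in the 4 EGF libraries, whose median difference was 0.00303. Chromosome 18 had a median of 0.30 over 302 genes, and 0.29 to 0.33 in the 4 pairings of 1 AMPK KO with 1 WT library. Of its genes 24 were called, all higher (7.95%, against 1.93% of the 18364). Chromosome 3 had a median of 0.13 over 970 genes, with 42 higher and 1 lower call, and chromosome 14 had a median of -0.13 over 556 genes, with 0 higher and 11 lower calls. The other chromosomes had medians between -0.08 and 0.07.

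**Figure D4:**
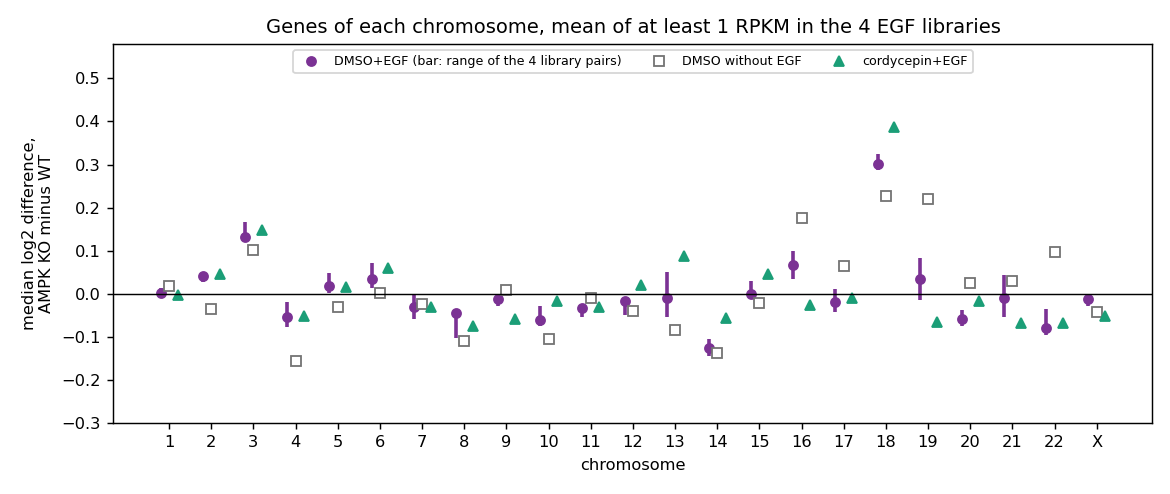
Median difference between the lines (log2, AMPK KO minus WT) of the genes of each chromosome under DMSO with EGF (purple, with the range of the 4 library pairs), in DMSO (open squares) and with cordycepin and EGF (green). Chromosome 18 is the highest under EGF, at 0.30, and chromosome 14 the lowest, at -0.13.

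Within chromosomes, runs of at least 41 neighbouring genes were sought whose running median over 41 genes reached 0.3 in size under EGF, and runs of 1 sign within 41 genes of each other were joined. The EGF libraries chose them, so their values there are a description. On the long arm of chromosome 2, from 190.9 to 242.1 Mb, 261 genes had a median of 0.38, or 1.31-fold, and 42 were called higher and 1 lower. The run included CUL3, ARPC2 and ZDBF2. On chromosome 3 a run from 14.9 to 52.7 Mb held 290 genes with a median of 0.35 and 29 higher calls, BSN, UCN2, PBRM1 and SMARCC1 among them, and a second run from 121.8 to 129.9 Mb held 79 genes with a median of 0.38. Chromosome 18 had runs at both ends, with medians of 0.29 and 0.36, and chromosome 6 had 1 from 139.2 to 150.8 Mb with a median of 0.30. The named members of these runs other than ZDBF2, BSN and UCN2 were chosen after their values were seen. These higher runs held 855 genes, 4.66% of the 18364, and 94 of the 195 higher calls among them (48.2%), with 2 lower calls.

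In 4 runs the values were lower. A run of 73 genes at the start of chromosome 14, up to 24.2 Mb, had a median of -0.35 and 7 lower calls, CEBPE and CIROP among them. The end of chromosome 4, from 169.7 Mb, had a median of -0.38 over 53 genes. Runs on chromosomes 8 and 17 had medians of -0.27 each.

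The other 8 libraries took no part in choosing the runs. Their medians had the same sign except for chromosomes 8 and 17 in DMSO, and the sizes varied. The chromosome 2 run had a median of 0.42 in DMSO and 0.43 with cordycepin and EGF. The chromosome 3 runs had 0.35 and 0.37 in DMSO and 0.29 and 0.31 with cordycepin and EGF, and the chromosome 4 run had -0.58 and -0.52. The chromosome 14 run had -0.20 and -0.29. The chromosome 6 run had 0.12 in DMSO and 0.45 with cordycepin and EGF. The chromosome 18 runs had 0.23 and 0.28 in DMSO and 0.32 each with cordycepin and EGF. For the runs on chromosomes 8 and 17 the DMSO medians were above 0, at 0.27 and 0.11. After the GC correction the chromosome 2 run had 0.38, 0.45 and 0.42 in the 3 conditions, and the chromosome 8 run had -0.13, -0.02 and -0.09. No library measured DNA, and what underlies the runs was not tested.

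How far the EGF comparison described the lines in general was examined in the other conditions, which used other libraries. In DMSO without EGF 97 genes passed (0.44%), with 62 higher (0.281%) and 35 lower (0.159%), and 4707 (21.3%) had an unadjusted p under 0.05. With cordycepin and EGF 26 passed (0.118%), with 10 higher (0.0453%) and 16 lower (0.0725%), and 3032 (13.7%) had an unadjusted p under 0.05. Both counts changed by over 1.5 times with the fit, and without the shallow library the DMSO count was 3065. Of the 205 genes higher under EGF, 200 had a difference above 0 in DMSO and 155 with cordycepin and EGF. Of the 178 lower genes, 162 were below 0 in DMSO and 107 with cordycepin and EGF. The median difference of the higher set was 0.83 under EGF, 0.53 in DMSO and 0.24 with cordycepin and EGF. That of the lower set was -1.09, -0.48 and -0.11. The EGF libraries chose both sets, so the medians under EGF are shifted away from 0 by that choice. The smaller medians elsewhere therefore do not show that the lines differed most under EGF. The share of all genes tested that kept their sign is not given here, so the sign counts have no background beside them. Over all 22067 genes, which are not independent replicates, the line differences correlated between EGF and DMSO with Pearson's r = 0.447 (0.501 after the GC correction). Between EGF and cordycepin with EGF, r was -0.0768 (-0.0964 after the GC correction).

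**Figure D5:**
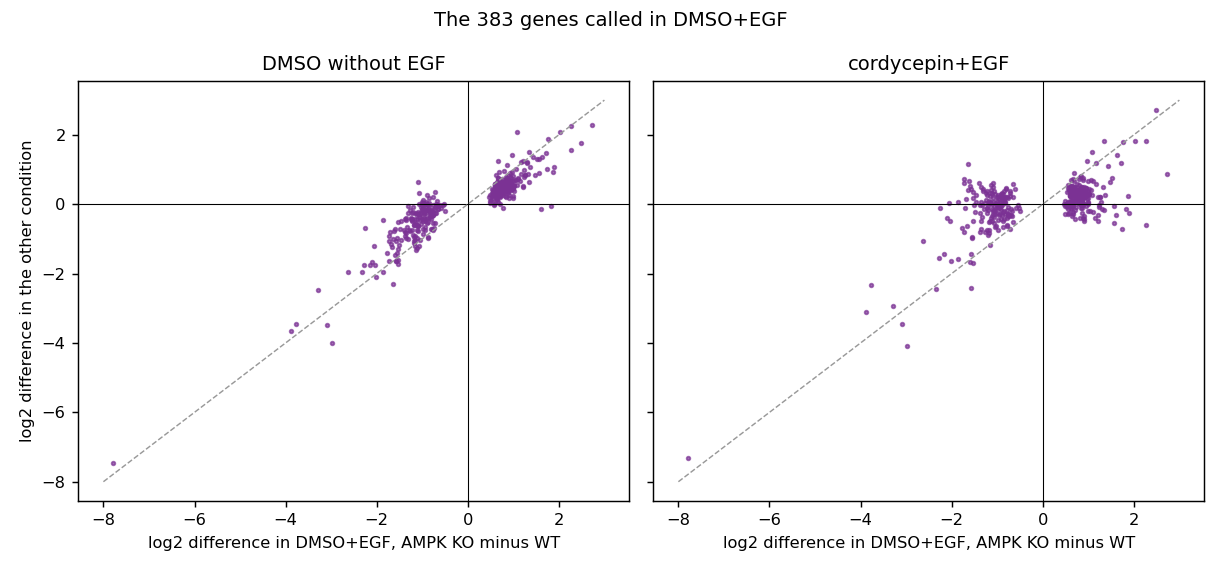
Difference between the lines (log2, AMPK KO minus WT) of the 383 genes called under DMSO with EGF (horizontal axis) against the same difference in DMSO (left) and with cordycepin and EGF (right), with the line of equality dashed. On the left 200 of the 205 higher and 162 of the 178 lower genes keep their sign, on the right 155 and 107 do, and CEBPE is the point at -7.78 on the horizontal axis.

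A set of 19 genes passed in all 3 conditions in 1 direction, 12 lower and 7 higher. The lower genes included CEBPE, MAP7D2, CIROP, TUSC1, TENM1, H2BC10, RIBC2 and ZNF717, and also SPARC and SFRP2, a matrix protein and an inhibitor of WNT signals. SPARC had 2.09 and 1.87 RPKM in WT and 0.109 in both AMPK KO libraries, and SFRP2 had 1.64 and 1.43 RPKM against 0.0725 and 0.0363 RPKM. FABP5, a fatty acid carrier, and its pseudogene FABP5P7 were both lower by 1.60 and 1.58 and may share reads. The higher genes included RADX, SALL3 and ENSG00000287266, with MYOM2, ENSG00000287055, GRM7 and GRM7-AS1. GRM7, a glutamate receptor, had 0 and 0.0148 RPKM in WT and 1.67 and 1.51 RPKM in AMPK KO. SPARC, SFRP2, FABP5, FABP5P7, MYOM2, GRM7, GRM7-AS1 and ENSG00000287055 were named after their values were seen.

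Tests of the difference between conditions passed for no gene. The line difference under EGF minus that in DMSO gave 0 calls in limma, with 1917 genes at an unadjusted p under 0.05 (8.69%) and 0 calls by voom. The line difference under EGF minus that with cordycepin and EGF also gave 0, with 4716 at an unadjusted p under 0.05 (21.4%). That count of 0 depended on the fit, since 1128 genes were called when only the compared groups were fitted, 2000 without the WT DMSO group and 2067 by voom. CGA, for example, was at 1.40 and 1.79 RPKM in WT and 3.06 and 3.51 RPKM in AMPK KO with cordycepin and EGF, and its difference between conditions was 1.85 (SE 0.423, limma adjusted p = 0.122). EGR1, with cordycepin and EGF, was at 53.8 and 50.9 RPKM in WT and 44 and 69.96 RPKM in AMPK KO, where the lines overlapped.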

How the data were processed

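The authors sequenced paired reads of stranded, ribosomal RNA-depleted libraries, mapped them to GRCh38.p13 (hg38, per the submitters' processing notes), counted them with Rsubread and deposited 1 table of RPKM values per gene and library. Replicate 1 of each condition was discarded by the authors as an outlier. The table listed 26058 genes, by a rule not given in the sources used here, and 2 rows without a gene were left out. GENCODE 44 gave symbols and positions for 26029 genes.

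Values were divided by each library's upper quartile, restored to the mean quartile and tested on log2(RPKM + 0.5) for the 22067 genes with a mean of at least 0.5 RPKM over 12 libraries. The fit used limma 3.58.1 in R 4.3.3 (lmFit, contrasts.fit, eBayes with trend) over 6 group means, with two-sided p-values and Benjamini-Hochberg adjustment over all genes tested. The study scaled RPKM by the upper quartile too. Printed levels are RPKM as deposited. The labels do not say that replicates came from separate cultures, so p-values measure the spread between these libraries. Reads were recovered from the RPKM steps for 25855 genes (99.2%), to within 0.05 of a read or 0.01% of larger counts, and served voom and the counting intervals.

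Genes were named by a rule: the AMPK subunits, immediate early genes, called members of the other lists, and the 10 protein-coding and 3 long noncoding genes with the largest rise and fall among those called with a mean of at least 1 RPKM and no overlap. Some genes chosen this way are not reported here. The members and lists were chosen with earlier results of these data known. The fit was tested on simulated data. Alternatives were other pseudocounts, filters, scalings and spreads, a replicate block, voom and leaving out libraries. A GC correction (20 classes of exon GC content) and leaving out the shallow library were added after seeing the data.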

Additional observations from a re-analysis of the deposited data

How the results depend on the processing

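With 2 libraries a side, leaving out 1 library of a comparison left a lone sample assumed to vary like the other groups. The 383 calls under EGF became 6 to 10 this way, the 97 in DMSO 5 to 3065, the 26 with cordycepin and EGF 4 to 14, and the 0 differences between EGF and DMSO 0 to 13. The highest DMSO value, 3065, came without the shallow WT DMSO replicate 3, and the 13 came without WT DMSO replicate 2. Fitting only the compared groups gave 2215 calls under EGF, 1 in DMSO, 2 with cordycepin and EGF and 1128 differences between EGF and cordycepin with EGF. Leaving the WT DMSO group out gave 2369, 78 and 2000 for the 3 of these that could be fitted, and leaving out its shallow library gave 2364 under EGF. Voom on recovered reads gave 2453 under EGF, 1762 in DMSO, 339 with cordycepin and EGF and 2067 differences between EGF and cordycepin with EGF. No filter gave 188 in DMSO. Under EGF, eBayes without trend gave 232 (103 higher, 129 lower), the GC correction 148 (94 and 54) and the GC correction with replicate block 136 (88 and 48). The cause of these changes was not tested. The other settings kept the 5 counts within 1.5 times.

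Replicate numbers were not taken to pair the samples, since the deviations of same-numbered libraries from their group means had r = -0.0538 over genes for the EGF groups and -0.122 to 0.322 over the pairs of groups. The replicate block gave 311 calls under EGF (183 higher, 128 lower), 117 in DMSO and 27 with cordycepin and EGF, and 0 for both differences. Depth limits genes with few reads, such as ID1 and H2BC10.

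The sign of 7 immediate early genes that did not pass turned. With the GC correction, with or without the block, the difference was 0.0062 for BTG2 and 0.0288 for NAB2. With 1 EGF library left out it was -0.0974 to 0.0485 for BTG2. It was -0.276 to 0.148 for HBEGF, -0.0862 to 0.00467 for IER5, -0.149 to 0.325 for JUNB, -0.283 to 0.111 for NAB2, -0.0107 to 0.134 for SRF and -0.169 to 0.37 for ZFP36.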
